A study of Homo sapiens with 33 samples.

Results

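CXCL1, CXCL2, CXCL3, CXCL5, CXCL6 and CXCL8 are CXC chemokines that attract neutrophils. Their RNA was followed in cultured malignant pleural mesothelioma (MPM) cells given the CDK4/6 inhibitor palbociclib. These 6 genes were taken by symbol from a matrix of 58302 genes, in which each symbol named 1 row. The libraries were RNA-seq libraries of 6 established lines, kept in RPMI medium with fetal bovine serum. The study classed 4 MPM lines as sensitive to palbociclib, which were MSTO-211H, H28, H2452 and H2052. MPP89 is an MPM line with mutant RB1, and MeT-5A is a mesothelial line immortalized with SV40, in which the retinoblastoma protein is inactivated. Cells received 1 µM palbociclib or 0.1% DMSO for 9 or 10 days, and in the washout libraries the inhibitor had been withdrawn for 48 h. Pairs of DMSO and palbociclib libraries numbered 11 from the sensitive lines (3 of MSTO-211H, 3 of H28, 3 of H2452 and 2 of H2052) and 2 of MPP89. There were also 1 pair of MeT-5A, 1 washout library of each sensitive line and 1 untreated MeT-5A library, 33 in all. Each line is a single established culture, so replicate experiments measure spread within a line and not between tumours.

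These chemokines carry a glutamate-leucine-arginine motif ahead of their first cysteines and bind the receptors CXCR1 and CXCR2 on neutrophils. CXCL8, also known as interleukin 8, binds both receptors, and CXCL1, CXCL2 and CXCL3, the GRO chemokines, bind mainly CXCR2. Their genes are silent or weakly transcribed in resting epithelial and mesothelial cells, are switched on by NF-κB after interleukin 1 or TNF, and give short-lived mRNAs with AU-rich elements. CXCL8 and the GRO chemokines are also known as secreted products of senescent cells.

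All 6 genes lie on chromosome 4 (GRCh38) within 358.7 kb, from 73740519 to 74099196. Promoters were taken from RefSeq (GRCh38.p14, 250 bases before to 50 after the start), and all 6 symbols matched. The letters GGAATTTCC, a binding site of NF-κB, were searched on both strands and occurred in 6 of the 6 member promoters and in 0.461% of the 35116 promoters of the same length. The 30 bases around that match are shown for each gene because they are the feature that the group shares in sequence, with the match in capitals. CXCL1 lies at chr4:73869305-73869334 on the plus strand, CXCL2 at chr4:74099253-74099282, CXCL3 at chr4:74038748-74038777 and CXCL5 at chr4:73998748-73998777 on the minus strand, and CXCL6 at chr4:73836579-73836608 and CXCL8 at chr4:73740468-73740497 on the plus strand.
CXCL1: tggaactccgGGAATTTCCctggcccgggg
CXCL2: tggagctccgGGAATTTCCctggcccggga
CXCL3: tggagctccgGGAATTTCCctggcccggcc
CXCL5: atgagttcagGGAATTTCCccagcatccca
CXCL6: ctgagttcagGGAATTTCCccagcatccca
CXCL8: tgcaaatcgtGGAATTTCCtctgacataat
The match began 78, 77 and 78 bases before the RefSeq start of CXCL1, CXCL2 and CXCL3, and 90, 89 and 91 bases before that of CXCL5, CXCL6 and CXCL8. The bases beside it fell into 3 kinds, those of the GRO genes, those of CXCL5 and CXCL6, and those of CXCL8. Over the whole promoter, CXCL1 and CXCL3 had 84.7% of 300 bases identical when aligned, CXCL5 and CXCL6 83.7%, and CXCL8 had between 54.7% and 57.3% identical to any other member. An AP-1 site spelled TGANTCA occurred in 7.71% of all promoters and among the 6 only in that of CXCL8, as did TATAAA, which occurred in 11.5% of all promoters. A match is a description of letters and does not show binding. GGAATTTCC was the only spelling of an NF-κB site searched. The member promoters resemble each other, so the 6 matches are not independent, and their number was not tested against the share of all promoters.

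The deposited unit was CP20M, reads per gene scaled to 20000000 reads and rounded up to whole numbers. CXCL8 (ENSG00000169429) ranged from 0 to 2647 CP20M over the 33 libraries with a median of 96, CXCL2 (ENSG00000081041) from 7 to 1301 with a median of 90, CXCL1 (ENSG00000163739) from 2 to 988 with a median of 63, and CXCL3 (ENSG00000163734) from 0 to 554 with a median of 23. These 4 passed the filter of 100 CP20M in at least 1 library, as did 17803 genes in all. CXCL5 (ENSG00000163735) stayed at or below 23 CP20M and was above 0 in 20 of 33 libraries, and CXCL6 (ENSG00000124875) stayed at or below 10 CP20M and was above 0 in 10 of 33, so neither was tested. The members were thus low to moderate transcripts, and the depth could be read for 23 libraries, the lowest at 12770000 reads, where 100 CP20M stands for 63 reads. CXCL2 and CXCL3 shared 79 identical windows of 100 bases in their transcripts, 5.34% of those of CXCL2 and 3.27% of those of CXCL3. A small part of their reads may therefore not be told apart by sequence. No such window was shared by the other members.

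Before any inhibitor, the lines differed in which chemokine they expressed. MSTO-211H had the highest CXCL8 and CXCL2, MPP89 and MeT-5A had almost no CXCL8 or CXCL3, and H28 had CXCL8 and CXCL1 but almost no CXCL2 or CXCL3. For CXCL8 the DMSO libraries of MSTO-211H held 96, 863 and 1354 CP20M, those of H2452 38, 158 and 91, those of H28 61, 73 and 45, and those of H2052 18 and 71. MPP89 held 6 and 3, the DMSO library of MeT-5A held 0 and its untreated library 4. The order of CXCL8 was MSTO-211H, H2452, H28, H2052, MPP89 and MeT-5A. The ranges of the first 4 of these overlapped between neighbours, and those of H2052 and MPP89 did not.

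For CXCL2 the DMSO libraries held 418, 862 and 931 CP20M in MSTO-211H, 81 and 270 in H2052, 93, 90 and 178 in H2452, 25 in MeT-5A, 18 and 25 in MPP89 and 8, 7 and 19 in H28. MSTO-211H stood above H2052 without overlap, and H2452 above MeT-5A, while H2052 and H2452 overlapped, as did MeT-5A, MPP89 and H28 between neighbours. CXCL3 held 40, 133 and 160 CP20M in MSTO-211H, 65 and 105 in H2052, and 14, 19 and 23 for H2452, with 3, 7 and 7 for H28, 2 and 7 in MPP89 and 0 in MeT-5A. H2052 and H2452 did not overlap for CXCL3, nor did H2452 and H28. CXCL1 held 96 and 120 CP20M in H2052, 25, 130 and 128 in MSTO-211H, and 22, 105 and 21 for H2452, with 15, 63 and 33 for H28, 11 and 28 in MPP89 and 2 in MeT-5A, and the first 5 of these lines overlapped between neighbours.

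An F test over the 6 lines in limma on log2(CP20M + 10), with Benjamini-Hochberg adjustment over 17803 genes and a false discovery rate (FDR) of 0.05, called all 4 tested members, with adjusted p = 0.00101 for CXCL8, 3.29e-06 for CXCL2, 3.55e-05 for CXCL3 and 0.03 for CXCL1. The test called 95.6% of all genes, so a difference among lines was the rule for genes in general. The call of CXCL1 was lost in 8 of 22 alternatives, with adjusted p from 0.00488 to 0.0898.

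**Figure D1:**
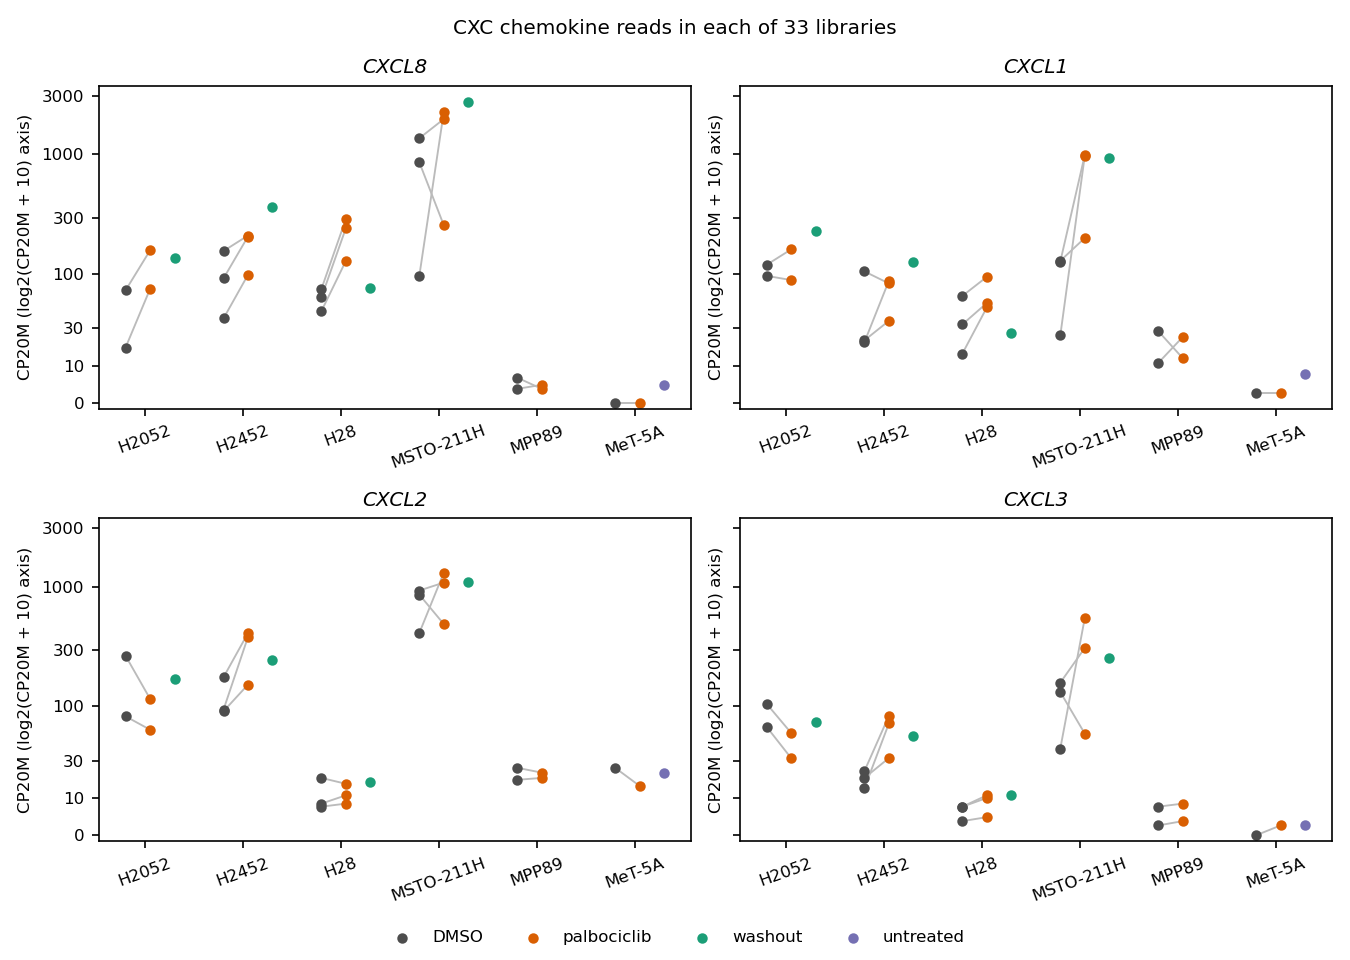
CP20M of CXCL8, CXCL1, CXCL2 and CXCL3 in each library, on an axis of log2(CP20M + 10), by line and by treatment (DMSO, palbociclib, washout, untreated), with a grey line joining the DMSO and palbociclib library of an experiment. CXCL8 rose in 10 of the 11 sensitive pairs, the exception being an MSTO-211H pair that went from 863 to 261 CP20M, and in MPP89 and MeT-5A it stayed at or below 6 CP20M.

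Levels of different genes can be set beside each other only per length, so CP20M was divided by the exonic length of each gene (GENCODE 44) and given as a share of the sum of the 6 members. That length held all bases exonic in any annotated transcript. For CXCL3 it was 2219 bases, the whole gene from 74036589 to 74038807, and for CXCL8 2588 bases between 73740519 and 73743716. Bases intronic in other transcripts thus count, which can lower the share of such a gene. The order of the shares can depend on this length, and other lengths were not tried. In the DMSO libraries of MSTO-211H, CXCL2 made up 61.7% of that sum, CXCL8 26.2% and CXCL1 6.83% (means of 3). In those of H2452, CXCL2 made up 53.5%, CXCL8 20.4% and CXCL1 19.9% (means of 3), and in those of H2052, CXCL2 44%, CXCL1 33.2% and CXCL3 15.3% (means of 2). Single libraries varied, with CXCL2 from 30.3 to 66.5% and CXCL1 from 8.05 to 36.3% in H2452, and CXCL2 from 34.5 to 53.5% and CXCL1 from 24.4 to 42.0% in H2052, and CXCL1 exceeded CXCL2 in 1 DMSO library of each. In H28 the mean shares of CXCL1 and CXCL8 were 41.3% (from 26.4 to 56.0%) and 40.2% (from 29.8 to 56.6%), against 14.4% for CXCL2. With palbociclib the share of CXCL8 went from 5.87% to 19.8% in H2052 and from 40.2% to 57.9% in H28, and that of CXCL1 went from 6.83% to 26.7% in MSTO-211H. In H2452 the shares of CXCL2 and CXCL8 were 58.7% and 19.1% with palbociclib. These shares are descriptions of levels per kb and were not tested.

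**Figure D2:**
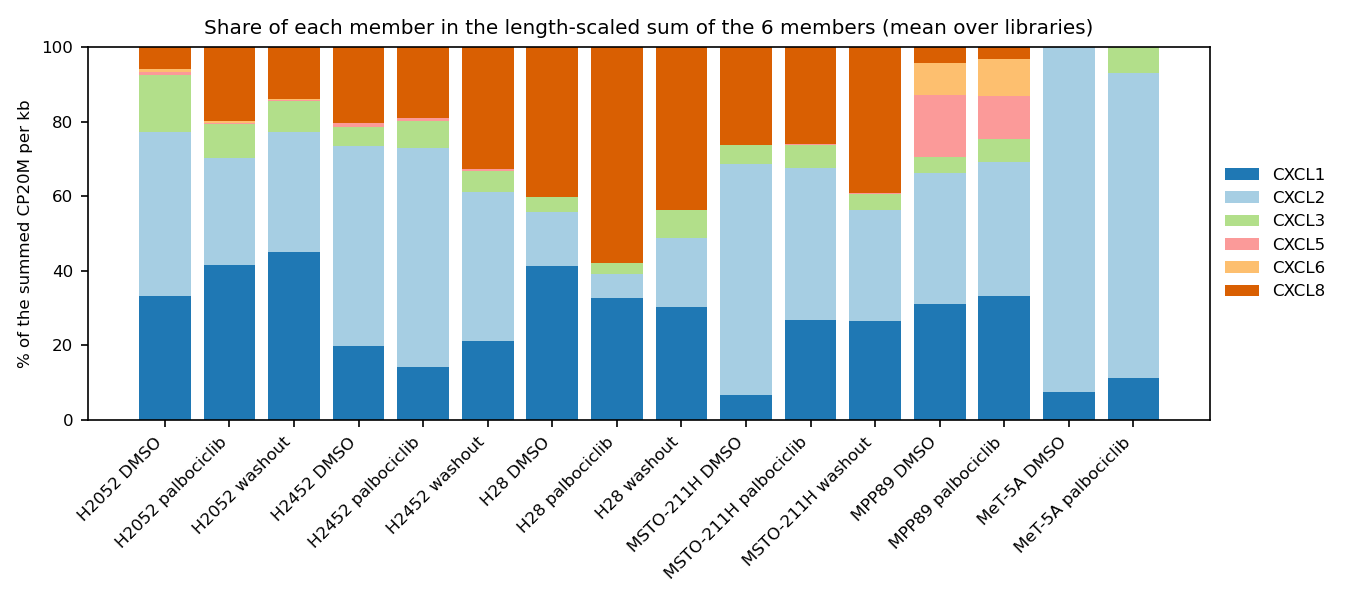
Mean share, in percent, of each member in the sum of CP20M per kb of the 6 members, for each line and treatment. CXCL2 has the largest mean share in the DMSO libraries of MSTO-211H (61.7%) and H2452 (53.5%), and CXCL8 in the palbociclib libraries of H28 (57.9%).

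With palbociclib, CXCL8 rose 2.36-fold and CXCL1 2.23-fold over the 4 sensitive lines. CXCL8 held 18 and 71 CP20M with DMSO and 73 and 160 with palbociclib in H2052. The H2452 libraries held 38, 158 and 91 with DMSO and 98, 214 and 210 with palbociclib, and the H28 libraries 61, 73 and 45 against 247, 295 and 130. In MSTO-211H it held 96, 863 and 1354 with DMSO and 2210, 261 and 1939 with palbociclib. CXCL8 was thus higher in 10 of 11 pairs, every pair of H2052, H2452 and H28 included, and the second MSTO-211H pair went the other way. The median over the 11 libraries was 73 CP20M with DMSO and 214 with palbociclib. In the limma fit with the experiment as a block, CXCL8 rose by a log2 difference of 1.24 (SE 0.38, 11 pairs), with a 95% interval from 1.35 to 4.13-fold, at adjusted p = 0.0147. The call was lost without line H28 (adjusted p = 0.104) and without line H2052 (adjusted p = 0.0502). In bulk RNA of a culture, more cells that express a gene and more RNA per cell cannot be told apart.

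CXCL1 held 96 and 120 CP20M with DMSO and 88 and 163 with palbociclib in H2052. It held 22, 105 and 21 against 36, 82 and 87 in H2452. The H28 libraries held 15, 63 and 33 against 49, 94 and 54. In MSTO-211H it held 25, 130 and 128 with DMSO and 977, 204 and 988 with palbociclib, the only one of the 4 lines in which the DMSO and palbociclib libraries did not overlap for CXCL1. CXCL1 was higher in 9 of 11 pairs, and its log2 difference was 1.16 (SE 0.39, adjusted p = 0.0252), with a 95% interval from 1.25 to 4.00-fold. Without MSTO-211H the difference of CXCL1 fell to 0.56 on the log2 scale and was not called, as it stayed under the fold limit of 1.5, with adjusted p = 0.0458. The call of CXCL1 was also lost with line means as units (adjusted p = 0.119), without line H28 (0.0649), without the third MSTO-211H pair (0.0583) and with no filter (0.0519).

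CXCL2 and CXCL3 did not pass the test over the sensitive lines. CXCL2 was higher in 7 of 11 pairs, with a log2 difference of 0.32 (SE 0.26, adjusted p = 0.321), and CXCL3 in 8 of 11, with a log2 difference of 0.55 (SE 0.35, adjusted p = 0.209). Their 95% intervals ran from 0.85 to 1.83-fold for CXCL2 and from 0.87 to 2.48-fold for CXCL3, so a rise of CXCL3 as large as the estimate for CXCL8 was not excluded at this spread. CXCL5 had a median of 0 CP20M with DMSO and 2 with palbociclib in the sensitive lines, and CXCL6 had a median of 0 in both.

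A call required an FDR under 0.05 over 17803 genes and a fold change above 1.5 or below 1/1.5, and 2 of the 4 tested members were called up, where 5.58% of all genes were. The median log2 difference was 0.86 over the 4 tested members and -0.11 over all genes. Scaling by the median of ratios in place of the library total moved the median of all genes from -0.11 to 0.06, and the difference of CXCL8 was then 1.42 and that of CXCL1 1.33. In the 9 day experiments alone CXCL8 differed by 1.37 (adjusted p = 0.094) and CXCL1 by 1.04 (adjusted p = 0.173), and in the 10 day experiments CXCL8 differed by 1.01 (adjusted p = 0.0203) and CXCL1 by 1.37 (adjusted p = 0.0691). DMSO and palbociclib libraries of a line were paired by the number in their labels. The labels do not name separate cultures or passages, so p-values measure the spread between these libraries.

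**Figure D3:**
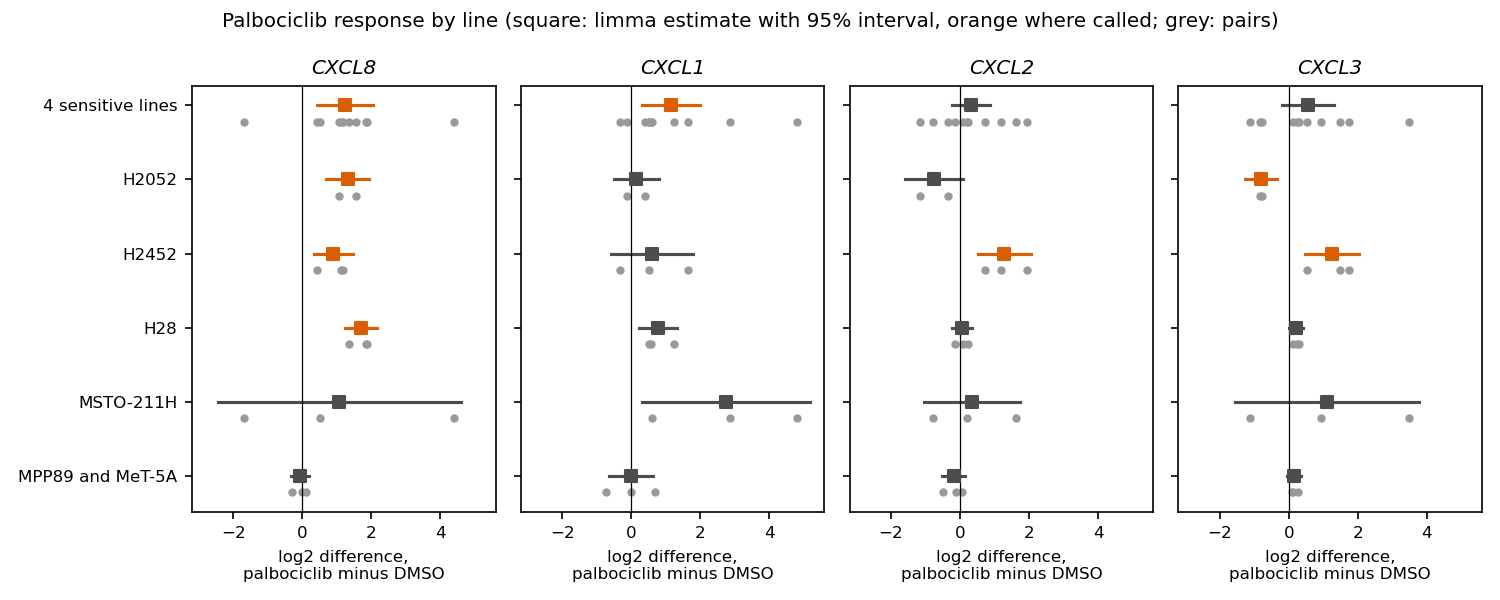
Difference of palbociclib minus DMSO in log2(CP20M + 10) for CXCL8, CXCL1, CXCL2 and CXCL3 in all sensitive lines together, in each sensitive line and in MPP89 with MeT-5A. Squares with bars are limma estimates with 95% intervals (orange where called), and grey points are pairs. CXCL8 lies above 0 in each sensitive line, with an interval from -2.46 to 4.60 in MSTO-211H, and CXCL3 lies at -0.81 in H2052 and at 1.25 in H2452.

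Each sensitive line was also fitted on its own. In H2052, CXCL8 rose in both pairs by a log2 difference of 1.32 (SE 0.20, adjusted p = 0.0428), where 4.67% of all genes were called up. In the same line CXCL3 went from 65 and 105 CP20M to 32 and 57 and fell by 0.81 on the log2 scale (SE 0.15, adjusted p = 0.0495), where 13% of all genes were called down. The median log2 difference over all genes in this fit was -0.24. Median-of-ratios scaling moved that median to 0.03, and CXCL3 then differed by -0.55, within the fold limit (adjusted p = 0.102). CXCL2 went from 81 and 270 to 61 and 116 CP20M in H2052 (log2 difference -0.76, SE 0.27, adjusted p = 0.127, and 0.0188 with the filter applied within this line), and CXCL1 had a log2 difference of 0.15 (SE 0.22). With 2 pairs these calls rest on little: without the block on experiment neither was called, at adjusted p = 0.215 for CXCL8 and 0.163 for CXCL3, and the call of CXCL3 was lost in 8 of 9 alternatives. Without the trend setting of limma the fit called no gene (8099 genes had an unadjusted p under 0.05). On simulated data the H2052 fit recovered 1 of 100 genes changed 2-fold, so a member not called may still have changed.

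In H2452, CXCL2, CXCL3 and CXCL8 rose and 6.04% of all genes were called up. CXCL2 went from 93, 90 and 178 CP20M to 387, 154 and 417, a log2 difference of 1.28 (SE 0.27, adjusted p = 0.0383). CXCL3 went from 14, 19 and 23 to 70, 32 and 82 with no overlap, a log2 difference of 1.25 (SE 0.28, adjusted p = 0.0411), and CXCL8 rose by 0.90 (SE 0.20, adjusted p = 0.0415). CXCL1 was higher in 2 of 3 pairs (log2 difference 0.62, SE 0.42, adjusted p = 0.308). With a pseudocount of 1, CXCL8 was no longer called (adjusted p = 0.0528). Without the block, CXCL3 alone was called, and without pair 1 or without pair 3 none of the 4 was, in fits of 2 pairs that called no gene (5310 and 6264 genes had an unadjusted p under 0.05).

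In H28, CXCL8 rose from 61, 73 and 45 CP20M to 247, 295 and 130 with no overlap, by a log2 difference of 1.69 (SE 0.17, adjusted p = 0.0266), where 5.89% of all genes were called up. CXCL1 was higher in 3 of 3 pairs of H28 with a log2 difference of 0.77 (SE 0.20, adjusted p = 0.0638), and median-of-ratios scaling brought it past the threshold (adjusted p = 0.0466). CXCL2, at 11, 8 and 16 CP20M with palbociclib, and CXCL3, at 4, 10 and 11, remained low in H28. With any pair left out, CXCL8 was no longer called in H28, in fits of 2 pairs that called no gene (3719 to 7029 genes had an unadjusted p under 0.05), and its log2 difference was between 1.60 and 1.87.

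In MSTO-211H none of the 4 members was called, where 5.9% of all genes were called up. On simulated data this fit recovered 39 of 100 genes changed 2-fold, so a member not called may still have changed. CXCL1 was higher in 3 of 3 pairs and had a log2 difference of 2.76 (SE 0.87, adjusted p = 0.0998), with an interval from 1.25 to 36.7-fold. It was 1.73 without pair 1 and 3.84 without pair 2 (adjusted p = 0.204 and 0.105). Pair 1 and pair 2 of this line went opposite ways for the other members. Deviations of the paired libraries from their group means correlated across genes with r = 0.181 in pair 1 and 0.456 in pair 2. In pair 1, CXCL8 went from 96 to 2210 CP20M, CXCL3 from 40 to 554 and CXCL2 from 418 to 1301, and in pair 2 CXCL8 went from 863 to 261, CXCL3 from 133 to 56 and CXCL2 from 862 to 495. The proliferation gene MKI67 fell in both, from 3355 to 1265 CP20M in pair 1 and from 1555 to 171 in pair 2. Without pair 1, the differences of CXCL8, CXCL2 and CXCL3 in MSTO-211H turned to -0.59, -0.29 and -0.09, and in the fit of all 28 libraries together CXCL1 was called (adjusted p = 0.00193).

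The difference of the response among the 4 sensitive lines was tested itself with an F test, which called 37.1% of all genes and none of the members. On simulated data this test also called unchanged genes, most of them of low mean level. Adjusted p was 0.0638 for CXCL2, 0.0984 for CXCL1, 0.242 for CXCL3 and 0.912 for CXCL8, and unadjusted p was under 0.05 for CXCL2 and CXCL1 (0.0264 and 0.0486). Without pair 1 of MSTO-211H, 3 members were called (CXCL2, CXCL3 and CXCL8), and without pair 2 of MSTO-211H 3 were called (CXCL1, CXCL2 and CXCL3). Those fits called 6755 and 6897 of 17803 genes.

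In the resistant lines the members were low in every library and none was called. CXCL8 held 6 and 3 CP20M with DMSO and 3 and 4 with palbociclib in MPP89, and 0 in both libraries of MeT-5A. CXCL1 held 11 and 28 against 24 and 13 in MPP89 and 2 against 2 in MeT-5A, CXCL2 held 18 and 25 against 19 and 22 and 25 against 15, and CXCL3 held 2 and 7 against 3 and 8 and 0 against 2. MPP89 was the line with the most CXCL5 and CXCL6, up to 23 and 10 CP20M. Of all genes 0% were called in this fit of 3 pairs, with 1258 of 17803 genes at an unadjusted p under 0.05. The log2 differences of the members ranged from -0.19 to 0.15, with 95% intervals from -0.33 to 0.20 for CXCL8 and from -0.64 to 0.62 for CXCL1, on values so near 0 that the pseudocount of 10 limits any difference.

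The difference between sensitive and resistant lines, tested as an interaction over 14 pairs, was called for 9.37% of all genes and for none of the members. It was 1.30 for CXCL8 (SE 0.76, adjusted p = 0.284) and 1.17 for CXCL1 (SE 0.80, adjusted p = 0.371) on the log2 scale, so that a rise in the sensitive lines and none called in the resistant lines was not shown to be a difference between them.

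After 48 h without palbociclib, the members showed no change from palbociclib that passed the test, and 1.4% of all genes were called. In the experiments with a washout library, CXCL8 in H2052 went from DMSO to palbociclib to washout as 71, 160 and 138 CP20M. The H2452 values were 91, 210 and 374, those of H28 45, 130 and 74, and those of MSTO-211H 1354, 1939 and 2647. It was therefore lower than with palbociclib in 2 lines and higher in 2. CXCL1 went as 120, 163 and 235 in H2052 and 21, 87 and 127 in H2452. The H28 values were 33, 54 and 27, and those of MSTO-211H 128, 988 and 939. The log2 differences of washout minus palbociclib were 0.08 for CXCL8 (SE 0.24, 95% interval from -0.46 to 0.62) and 0.03 for CXCL1 (SE 0.44, 95% interval from -0.95 to 1.02), and those of CXCL2 and CXCL3 were -0.04 and -0.13. In the same experiments MKI67 went from between 177 and 1816 CP20M with palbociclib to between 3093 and 8328 after washout. Both scalings other than the library total turned the differences of CXCL8 and CXCL1 to below 0, from -0.09 to -0.0051.

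Against the DMSO library of the same experiment, CXCL8 was higher after washout in 4 of 4 lines, with a log2 difference of 1.09 (SE 0.24, adjusted p = 0.0222), which is 2.13-fold with a 95% interval from 1.47 to 3.10. In H28 the washout value of 74 CP20M exceeded the 45 of its experiment, but the DMSO libraries of all H28 experiments held 61, 73 and 45. CXCL8 was 1 of 4 tested members called, and 5.76% of all genes were. CXCL1 was higher in 3 of 4 lines (log2 difference 1.41, SE 0.44, adjusted p = 0.0667), the exception being H28. CXCL3 went as 105, 57 and 72 CP20M in H2052 and 23, 82 and 53 in H2452, with 7, 11 and 11 for H28 and 160, 314 and 258 for MSTO-211H. CXCL2 went as 270, 116 and 171 in H2052 and 178, 417 and 247 in H2452, with 19, 16 and 17 for H28 and 931, 1081 and 1083 for MSTO-211H. Neither differed from DMSO beyond the test (log2 differences 0.35 and -0.02). The comparisons of washout with palbociclib and with DMSO share the washout libraries, 1 for each line, and the call of CXCL8 was lost without H2052, without H2452 or without MSTO-211H, with adjusted p from 0.0793 to 0.0955.

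**Figure D4:**
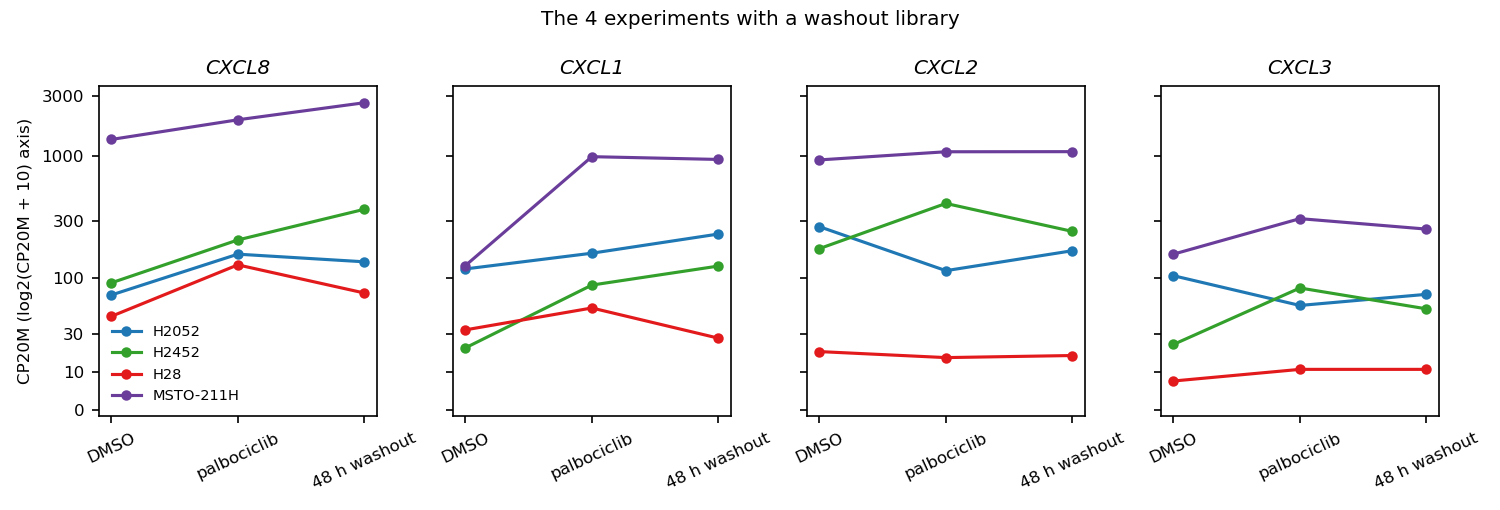
CP20M of the 4 members in the experiments with a washout library, on an axis of log2(CP20M + 10), from DMSO through palbociclib to washout, with a line for each cell line. CXCL8 ends above its DMSO value in each of the 4 lines, and CXCL1 in H28 ends at 27 CP20M, below its DMSO value of 33.

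Of the receptors of these chemokines, CXCR1 held at most 1 CP20M and CXCR2 at most 2 in the 33 libraries. The scavenging receptor ACKR1 reached 87 CP20M, in MPP89. The platelet chemokine genes that lie between the members on chromosome 4 were silent too, with PF4 and PF4V1 at 0 in every library and PPBP at 4 CP20M or less. Of the 7 other genes near the cluster, 5 were tested over the sensitive lines, where 5.58% of all genes were called up. RASSF6, on the far side of CXCL8, was called up (log2 difference 0.97, SE 0.20, adjusted p = 0.00143). MTHFD2L, on the other side, next to CXCL2, had a log2 difference of -0.47 that stayed within the fold limit (adjusted p = 0.0131), and the growth factor genes EPGN and EREG had adjusted p of 0.213 and 0.152.

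Other chemokines and myeloid factors were counted from lists over the sensitive lines, where 5.58% of all genes were called up and 9.37% down. Of 8 other CXC chemokines 3 were tested and none was called, with a median log2 difference of 0.02. CXCL16 ranged from 37 to 217 CP20M with DMSO and 29 to 388 with palbociclib (log2 difference 0.47, adjusted p = 0.0761), and CXCL10, the interferon-induced T cell chemokine, stayed at or below 6 CP20M in the sensitive lines. Of 13 CC chemokines 5 were tested and 3 were called up, none down, with a median log2 difference of 1.09. These were CCL2, which attracts monocytes (log2 difference 1.72, SE 0.53, adjusted p = 0.016, higher in 8 of 11 pairs), CCL20, which attracts CCR6-bearing cells (1.25, SE 0.25, adjusted p = 0.00133), and CCL26, an eotaxin (1.09, SE 0.21, adjusted p = 0.000848), the last 2 higher in 10 of 11 pairs. The mean of CCL2 in H2452 went from 828 CP20M with DMSO to 593 with palbociclib. All 5 tested CC chemokines were called as differing in response among the sensitive lines, by the F test that called 37.1% of all genes. Of its 109 false calls on simulated data, 67 fell on genes of mean under 100 CP20M, where CCL5, CCL20, CCL26 and CCL28 lie. Of 9 other neutrophil and myeloid factors 6 were tested. IL6 was higher in 11 of 11 pairs (log2 difference 1.37, SE 0.27, adjusted p = 0.00117) and CSF2, which encodes GM-CSF, in 10 of 11 (1.16, SE 0.29, adjusted p = 0.00558), and IL11 fell by 1.10 on the log2 scale (SE 0.17, adjusted p = 0.000224). CSF1 and LIF, a macrophage growth factor and a cytokine of the interleukin 6 family, had log2 differences of 0.39 and 0.22 (adjusted p = 0.0824 and 0.126).

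Upstream cytokines and receptors gave 4 genes called up of 18 tested, IL1B (log2 difference 0.96, adjusted p = 0.0487), IL18 (0.85, adjusted p = 0.00481), the interleukin 1 receptor IL1R1 (0.76, adjusted p = 0.0171) and TLR4 (0.90, adjusted p = 0.00489), and none down. In the same fit 5.58% of all genes were called up and 9.37% down. IL1B ranged from 3 to 2353 CP20M with DMSO and from 3 to 6350 with palbociclib, and was higher in 8 of 11 pairs. Of 16 NF-κB subunits and inhibitors, all tested, 1 was called, TNFAIP3, an NF-κB target whose product restrains the pathway, which was higher in 11 of 11 pairs (log2 difference 1.23, SE 0.26, adjusted p = 0.00193). A count of 1 in 16 is near the share of all genes called up. The subunits RELA and NFKB2 had log2 differences of 0.14 and 0.06, and the median of the list was -0.04 beside -0.11 over all genes. None of the 10 tested AP-1 and C/EBP factors was called (median -0.16), and JUN had a log2 difference of 0.35, under the fold limit. Of 9 factors of AU-rich mRNA decay and stability, all tested, HNRNPD, which encodes the decay factor AUF1, was called and was lower in 11 of 11 pairs, falling from a median of 3056 to 1403 CP20M (log2 difference -1.09, SE 0.06, adjusted p = 1.81e-07). A count of 1 in 9 is near the share of all genes called down. ELAVL1 and KHSRP, which stabilise and destabilise such mRNAs, had log2 differences of -0.37 and -0.39 under the fold limit, and the median of that list was -0.37.

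Levels of the members were compared with those of all other tested genes by Pearson's r over the 33 libraries, as a description, since these libraries share lines, treatments and scaling. The genes most like CXCL2 were IL1A (r = 0.95), NR3C2 (0.95) and PTX3 (0.94), and those most like CXCL3 were HMOX2 (0.93), IL1A (0.92) and SERPINB2 (0.90). The highest r was 0.87 for CXCL1, with ITGA2, and 0.88 for CXCL8, with JAK1. Among the members, the levels of CXCL2 and CXCL3 were the most alike (r = 0.93) and those of CXCL1 and CXCL2 the least (r = 0.71). Of the palbociclib responses over 14 pairs, that of CXCL1 was most like those of SCIN (r = 0.92), NR2F1-AS1 (0.92) and CSF3 (0.92), and those of CXCL2 and CXCL3 were both most like that of PCLO (r = 0.92 and 0.90). The response of CXCL8 was most like that of RTCA (r = 0.88), and its r with those of the other members was from 0.51 to 0.67. Among the members, the responses of CXCL2 and CXCL3 were the most alike (r = 0.87) and those of CXCL1 and CXCL2 the least (r = 0.48).

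The labels of cultured lines were set against markers of cell types. The 10 leukocyte markers summed to between 9 and 1152 CP20M and the 5 endothelial markers to between 17 and 306, where the 10 mesothelial markers summed to between 11230 and 140688. The mesothelial sum came mostly from keratin genes, with medians of 33504 CP20M for KRT8 and 16176 for KRT18. It does not by itself show mesothelial identity. In the DMSO libraries of H28, mean CALB2 was 0.667, MSLN 4.33 and PDPN 1.33 CP20M, against 85.7 for UPK3B and 203 for WT1. The highest leukocyte sum, in an H2452 palbociclib library, came mainly from CD14, at up to 1130 CP20M, while PTPRC, the gene of the leukocyte antigen CD45, stayed at or below 6 in the sensitive lines. The 6 fibroblast markers summed to between 577 and 90444 CP20M. All 6 were tested, and DCN and LUM were called up and COL1A1 down over the sensitive lines. In that fit 5.58% of all genes were called up and 9.37% down. Of the 3 endothelial markers tested, 1 was called. CLDN5, a tight junction gene, was called down (log2 difference -0.73, SE 0.17, adjusted p = 0.00366). It went from at most 40 CP20M with DMSO to at most 18 with palbociclib, and was higher in 2 of 11 pairs. Of the 9 mesothelial markers tested, 1 was called. CALB2, which encodes calretinin, was called up (log2 difference 1.69, adjusted p = 0.00409) and was higher in 7 of 11 pairs. The part of these markers in the chemokine results was not tested.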

How the data were processed

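RNA-seq libraries of 6 established cell lines were analysed, 33 in all. Per the labels and methods, the authors trimmed paired-end reads of directional libraries with Trimmomatic 0.36, mapped them with STAR 2.5.3 to GRCh38 with Ensembl release 90, counted reads per gene with HTSeq 0.9.1 and scaled them. The deposited values are CP20M, a scaled score with whole numbers made by rounding up, and not read counts, so no count model was used. Each column adds up to about 20000000, which hides the depth, and steps between low values gave it for 23 libraries. Over 22 pairs of replicates, at most 4.33% of tested genes had equal values, so none was a repeat of another.

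Here, the 17803 of 58302 genes that reached 100 CP20M in any library were fitted as log2(CP20M + 10) with limma 3.58.1 (lmFit, eBayes with trend) in R 4.3.3, with the experiment as a block, as the methods pair treated and control samples. As a check, deviations of paired libraries from their group means correlated across genes with r from 0.18 to 0.78 over 13 pairs. The lowest values were those of pair 1 and pair 3 of MSTO-211H (0.181 and 0.218), so their pairing had the least support. In H2052 (0.337) and MPP89 (0.783) both pairs have the same r by construction. Genes with FDR under 0.05 and a fold above 1.5 or below 1/1.5 were called, with no fold limit for interaction and F tests. Fits were tested on simulated data, where the F test of the response among the sensitive lines also called unchanged genes, most of them of low mean level. Alternatives changed the pseudocount, filter, scaling, trend, block and libraries. Fold changes on the log2(CP20M + 10) scale understate those of low genes. The members, gene lists and tests were chosen with earlier results of these data known. All 6 members are named. From each other list the genes named are at most 4 of the highest mean CP20M and those called over the sensitive lines, and the likeness measures name the top 3 genes. The named alternatives are given where they end a call. Lengths are the exons of all transcripts of a gene merged, from GENCODE 44, and promoters are from RefSeq.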

Additional observations from a re-analysis of the deposited data

Results flagged for a closer look

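CXCL3 was lower with palbociclib in both H2052 pairs and higher in all 3 pairs of H2452, all 3 of H28 and both of MPP89. The mean log2 difference in H2052 minus that in the other line was -2.06 against H2452, -1.02 against H28 and -0.91 against MPP89. CXCL2 was lower in both H2052 pairs and higher in all 3 H2452 pairs, a difference of -2.04 on the log2 scale. These differences between pairs of lines were not tested by themselves. The F test over the 4 sensitive lines gave adjusted p = 0.242 for CXCL3 and 0.0638 for CXCL2. In H28 and MPP89, CXCL3 did not exceed 11 CP20M.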

How the results depend on the processing

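Members called over the sensitive lines numbered 2, and 1 with no filter, with line means as units, in the 10 day experiments or without line MSTO-211H (CXCL1 lost), 1 without line H2052 (CXCL8 lost), and 0 in the 9 day experiments or without line H28. With 1 pair left out they numbered from 1 to 2, and only the third MSTO-211H pair changed the number (CXCL1 lost). In H2052 the 2 calls became 3 with the filter within the fit (CXCL2 also), 1 with a pseudocount of 50 or either other scaling, and 0 with a pseudocount of 1, no filter, without trend, in the fit without the replicate block and in the fit of all 28 libraries. In H2452 the 3 calls became 2 with a pseudocount of 1 (CXCL8 lost) or the filter within the fit (CXCL3 not tested), 1 with no filter, without the block and in the fit of all 28, and from 0 to 2 with a pair left out. In H28 the 1 call became 2 with median-of-ratios scaling and 0 in the fit of all 28 or with any pair left out. In MSTO-211H the 0 calls became 1 with the filter within the fit and in the fit of all 28. The F test among sensitive lines gave from 0 to 3 calls with a pair left out, and washout against DMSO from 0 to 2 with a line left out. The block changed no other call of a member.

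Of 668 values of single members under alternatives, 581 kept their direction and their side of the threshold and 24 changed sign, none of which was called in the main or the alternative fit. CXCL2 turned to -0.0403 over the sensitive lines without line H2452. With a pair left out, CXCL2 ranged from -0.0375 to 0.15 in H28, and CXCL2, CXCL3 and CXCL8 in MSTO-211H ranged from -0.29 to 0.91, from -0.0925 to 2.21 and from -0.59 to 2.45, below 0 without pair 1. In the resistant lines CXCL1 turned to 0.0028 with a pseudocount of 1 and ranged from -0.36 to 0.35, and CXCL8 from -0.15 to 0.0535, with a pair left out. The interaction of CXCL3 turned to -0.0192 with a pseudocount of 1. In washout against palbociclib, median-of-ratios scaling gave -0.0941 for CXCL1 and -0.0563 for CXCL8 and upper-quartile scaling -0.0472 and -0.0051. With a line left out CXCL1 ranged from -0.12 to 0.31, CXCL2 from -0.23 to 0.19, CXCL3 from -0.27 to 0.0059 and CXCL8 from -0.16 to 0.35. In washout against DMSO, CXCL2 turned to 0.0032 with a pseudocount of 50, 0.0702 and 0.0351 with median-of-ratios and upper-quartile scaling, and ranged from -0.17 to 0.19 with a line left out. The cause was not tested. In H2052 no pair could be left out. Depth limits CXCL5 and CXCL6, which stayed under the filter.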
